A study of Mus musculus with 10 samples.

Results

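The Hox genes described here are the 39 of 23337 gene symbols in the data that read Hoxa, Hoxb, Hoxc or Hoxd followed by a paralogue number and nothing else. They form the 4 mammalian Hox clusters, with 11 Hoxa, 10 Hoxb, 9 Hoxc and 9 Hoxd members, and the rule that chose them uses no measured value. The data are RNA sequencing of immortalised fibroblasts from mouse embryos (MEFs), that is, of embryonic connective-tissue cells adapted to continuous culture, in 10 libraries. Mouse interferon-β (IFN-β, a type I interferon) at 5000 IU/ml for 6 h was given to Slfn2 KO cells (2 libraries) and Slfn2 WT cells (3 libraries), and untreated cells gave 2 Slfn2 KO and 3 Slfn2 WT libraries. Slfn2 is an interferon-inducible gene of the Schlafen family, and the series asks what it does in the type I interferon response and to NF-κB signalling. All cells were immortalised and shared the medium (DMEM with fetal bovine serum) and the RNA preparation. Per the labels the cells of each genotype were plated as replicates, and no separately derived lines are named, so a p-value below measures the spread between these samples, which may be technical, and the genotype cannot be told apart from any other difference between the KO and WT cells.

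Hox genes encode homeodomain transcription factors that give cells along the head-to-tail axis and along the limbs their regional identity. Genes with low paralogue numbers sit at the 3′ end of a cluster and are used early and far forward in the embryo, while those with high numbers sit at the 5′ end and are used later, further back and in the outer parts of the limb. Polycomb complexes keep unused Hox genes silent, Trithorax-type complexes keep used ones active, retinoic acid and the Cdx factors help to open the clusters, and the PBX, MEIS and PKNOX homeodomain proteins bind DNA together with HOX proteins. Fibroblasts are known to keep in culture much of the Hox pattern of the body site they came from.

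The libraries held 13565815 to 16329729 reads each. Values are the deposited read counts scaled by library (normalised reads), on which 3 reads correspond to 2.73 to 3.29. Slfn2 itself had 75.0 and 171 normalised reads in KO-labelled cells with IFN-β, against 527, 449 and 573 in WT-labelled cells with IFN-β. Without IFN-β it had 46.1 and 34.9 in KO-labelled cells, against 18.7, 17.4 and 15.5 in WT-labelled cells. Its untreated level in KO-labelled cells was thus not below that of WT-labelled cells, so the groups are called KO-labelled and WT-labelled throughout. All 13 fibroblast markers had reads in every library, but Lum went down to 0.942 and Fap to 3.10 normalised reads. The 13 markers summed to 365216 to 489192 normalised reads in KO-labelled cells with IFN-β, against 223882 to 324052 in WT-labelled cells with IFN-β. Untreated, the sums were 317958 to 492225 in KO-labelled cells, against 223764 to 326927 in WT-labelled cells. Over all genes, libraries with the same replicate number deviated from their group means together, and less clearly so over the Hox genes. In the KO-labelled groups of 2 libraries the deviations mirror each other. A correlation with one such library is there the negative of that with the other by construction. A fit that takes the replicate number as a block was run too, and its value is given where it changes the call of a Hox gene.

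Of the 39 Hox genes, 16 were expressed in all 4 groups, 1 in 3 groups, 5 were low and 17 were silent. A gene was called expressed in a group at 10 or more reads in each of its libraries, silent at 3 or fewer reads in every one of the 10 libraries, and low otherwise. The count of expressed genes was 17 in KO-labelled cells with IFN-β and 16 in WT-labelled cells with IFN-β, and 17 in untreated cells of either label. The difference between the groups was Hoxa7, which had 2 reads in 1 IFN-β WT-labelled library and at least 10 in the other 9 libraries. The 10 libraries together held 55444 Hox reads, of which 42546 were from the Hoxb cluster, 7663 from Hoxa, 5232 from Hoxd and 3 from Hoxc.

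In the Hoxb cluster (GRCm38, chr11:96194316-96368256, plus strand), an unbroken run from Hoxb2 to Hoxb9 was expressed in every group. Hoxb1, the most 3′ gene, which acts in the hindbrain, had no read in any library, so it lay under the limit that 0 reads allow, 3 reads per library. Hoxb13, the most 5′ gene, which lies apart from the others and acts in the tail and prostate, was low, with 1 to 10 reads per library.

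In the Hoxa cluster (chromosome 6, minus strand), Hoxa2 to Hoxa5 were expressed in every group and Hoxa7 in all but WT-labelled cells with IFN-β. Hoxa6 (1 to 10 reads per library) and Hoxa10 were low. Hoxa9 had 2 reads in all, Hoxa13 had 1 and Hoxa11 had none. The 3 silent genes are paralogues used in the hind trunk, limb and genital region.

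In the Hoxd cluster (chr2:74668310-74765142, plus strand), Hoxd4, Hoxd8 and Hoxd9 were expressed in every group. Hoxd3 (0 to 11 reads per library) and Hoxd10 (0 to 7) were low. Hoxd11 and Hoxd12 had no read, and Hoxd1 and Hoxd13 had 1 read each over all libraries. The 3 expressed genes follow each other in the cluster, with low genes on both sides. Hoxd3 and Hoxd4 share 62.3% and 52.3% of their exon bases with same-strand annotated genes, among them each other, and how the authors' counting treated reads that fit both is not given, so the level of either gene is uncertain.

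All 9 genes of the Hoxc cluster (chr15:102921103-103036852, plus strand), from Hoxc4 to Hoxc13, were silent. Hoxc5 had 1 read, Hoxc6 had 2, and the other 7 had none in any of the 10 libraries. The silence of the most 5′ genes was common to the clusters: Hoxa11, Hoxa13, Hoxc10 to Hoxc13 and Hoxd11 to Hoxd13 were all silent, and Hoxb13 was low.

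**Figure D1:**
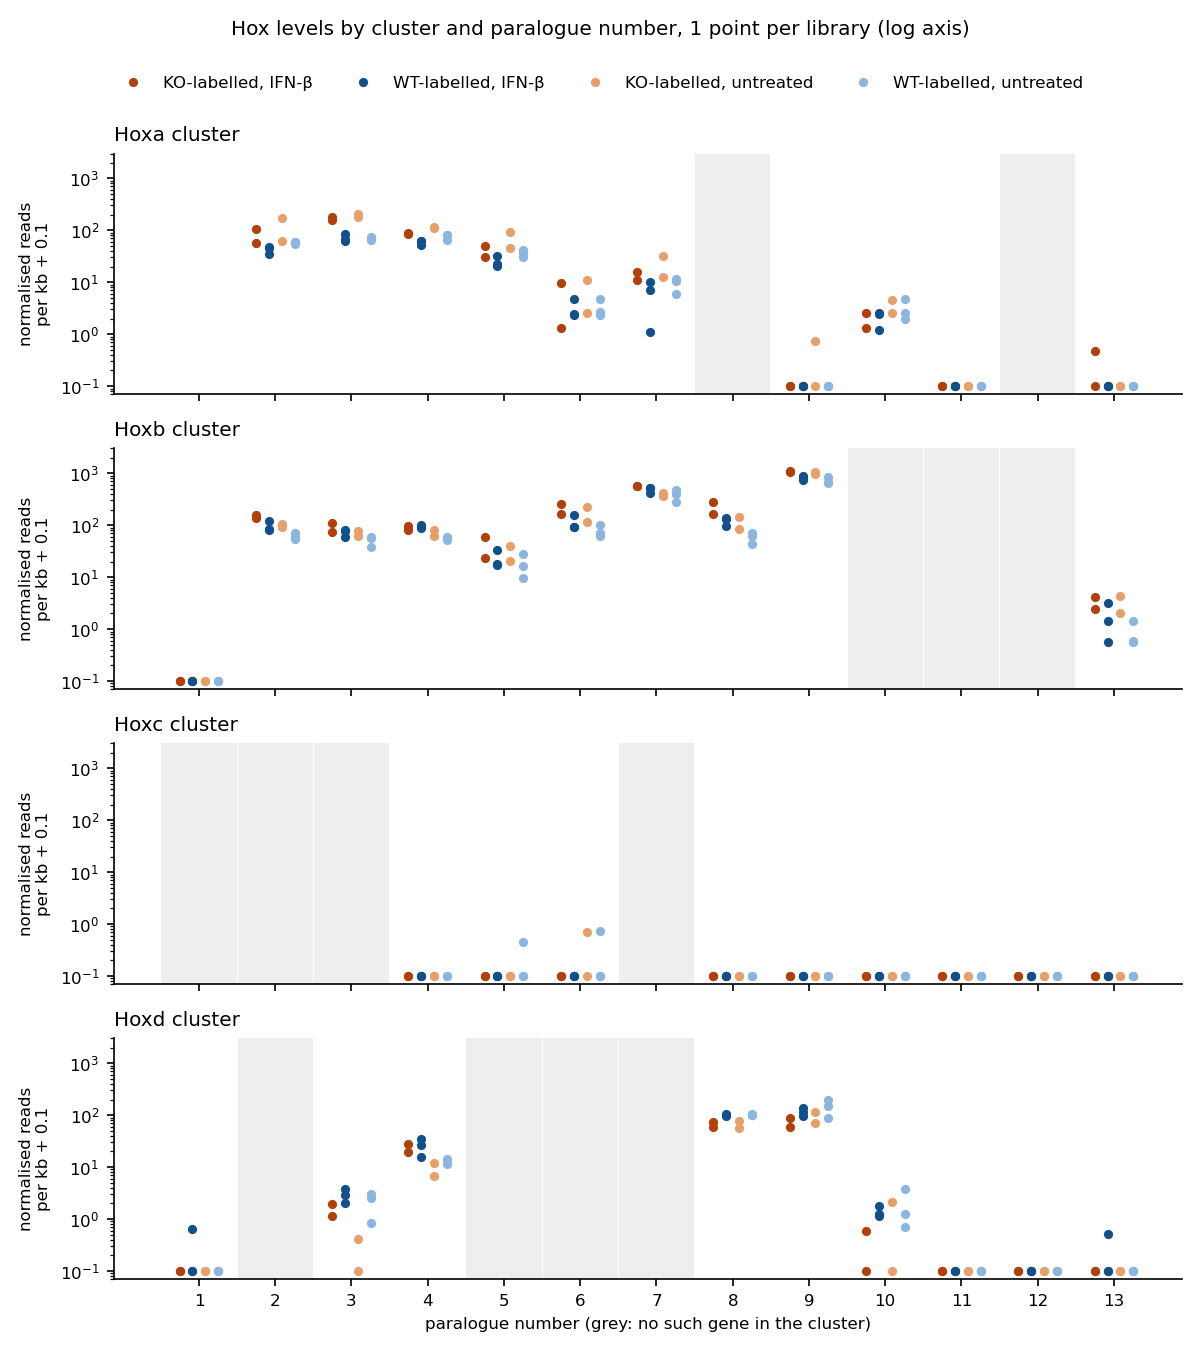
Normalised reads per kb of transcript in each library (1 point per library, coloured by group) for Hox genes, drawn by cluster in order of paralogue number on a log axis with 0.1 added so that values of 0 can be drawn, with KO-labelled points left of WT-labelled ones in each treatment. Hoxb2 to Hoxb9 form an unbroken run in which Hoxb9 and Hoxb7 lie highest. The other genes of that run overlap in level with Hoxa2 to Hoxa5. Hoxd4, Hoxd8 and Hoxd9 stand alone in their cluster, and every Hoxc gene lies at the bottom.

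Levels of different genes were compared as normalised reads per kb of the longest annotated transcript (mean ± SD, n = 2 for KO-labelled and n = 3 for WT-labelled groups). Hoxb9, which patterns the thorax and forelimb, was the most abundant Hox transcript in every group, at 1009 ± 75.9 per kb in untreated KO-labelled cells, against 727 ± 106 in untreated WT-labelled cells. It alone made up 38.1 to 46.4% of the summed Hox reads of a library. Hoxb7 was next in every group, at 393 ± 38.9 per kb in untreated KO-labelled cells, against 384 ± 99.6 in untreated WT-labelled cells.

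Below Hoxb7 the order differed between the labelled genotypes. Next came Hoxa3 in untreated KO-labelled cells, at 197 ± 18.7 per kb, against 70.8 ± 5.36 in untreated WT-labelled cells, where 6 genes lay above it. This place rests on the length used. Per kb of the union of its annotated exons, a length tried after the data were seen, Hoxa3 was at 84.7 ± 8.08 in untreated KO-labelled cells, against 30.5 ± 2.31 in untreated WT-labelled cells, and Hoxb6 came after Hoxb7 in untreated KO-labelled cells, at 169 ± 74.1, with Hoxa3 in place 9. In untreated WT-labelled cells Hoxd9 came next, at 92.5 ± 30.1 per kb in untreated KO-labelled cells, against 145 ± 54.6 in untreated WT-labelled cells. With IFN-β, Hoxb8 came after Hoxb7 in both, at 225 ± 84.7 per kb in KO-labelled cells, against 122 ± 22.3 in WT-labelled cells. At the low end lay Hoxd4, at 9.35 ± 3.95 per kb in untreated KO-labelled cells, against 12.4 ± 1.36 in untreated WT-labelled cells, and Hoxa7, at 22.0 ± 13.5 per kb, against 9.35 ± 2.98.

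Few neighbours in the order were separated by more than their SDs added together. In untreated KO-labelled cells the separated steps included Hoxb9 to Hoxb7 and, by longest transcript, Hoxb7 to Hoxa3. In untreated WT-labelled cells they were Hoxb9 to Hoxb7, Hoxb7 to Hoxd9, Hoxd8 to Hoxb6, and Hoxa5 to Hoxb5. Neighbours in the order among Hoxa2, Hoxa4, Hoxb2, Hoxb3, Hoxb4 and Hoxb8 differed by less than their spread in both untreated groups. With IFN-β the steps from Hoxb9 to Hoxb7 and from Hoxb7 to Hoxb8 were separated in this way in both labelled genotypes.

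By cluster, Hoxb genes supplied 70.7 to 81.5% of the summed Hox reads of a library. The Hoxd share with IFN-β was 5.21 and 6.13% in KO-labelled cells, against 11.3, 12.0 and 10.7% in WT-labelled cells. Untreated, it was 5.40 and 7.45% in KO-labelled cells, against 12.9, 14.6 and 14.3% in WT-labelled cells. Every KO-labelled library thus had a lower Hoxd share than every WT-labelled library. The Hoxa share with IFN-β was 13.3 and 13.7% in KO-labelled cells, against 11.3, 7.55 and 9.80% in WT-labelled cells. Untreated, it was 18.0 and 21.9% in KO-labelled cells, against 14.8, 11.8 and 14.0% in WT-labelled cells. Within each treatment the Hoxa share was higher in every KO-labelled library, and these shares were not tested.

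**Figure D2:**
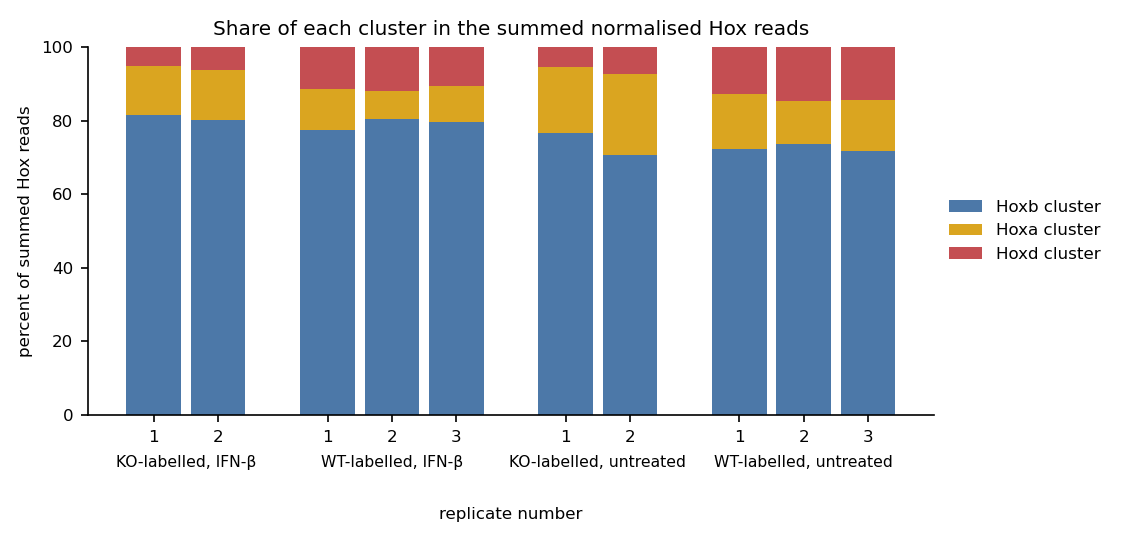
Percent of the summed normalised Hox reads from the Hoxb, Hoxa and Hoxd clusters (vertical axis) in each of the 10 libraries (horizontal axis, by group and replicate number), with the KO-labelled libraries left of the WT-labelled ones in each treatment. The top band, Hoxd, is 5.21 to 7.45% in the KO-labelled libraries and 10.7 to 14.6% in the WT-labelled ones.

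The promoters of expressed and silent Hox genes were compared by sequence. The classes and the choice of promoters shown come from these libraries, and the sequence features use no measured value. RefSeq promoter sequences (GRCm38.p6, 250 bases before to 50 after the start) were matched for 22 of the 39 genes, with 24 promoters. Of the expressed Hoxb genes only Hoxb4 and Hoxb8 were matched, and of the silent Hoxc genes only Hoxc4. Most genes of these clusters are thus left out of the comparison. The promoters of Hoxb4 and Hoxb8, the genes with the clearest IFN-β values below, of Hoxd4, an expressed gene with few CpG sites, and of Hoxd13, a silent gene, are shown 5′ to 3′ with CpG dinucleotides in capitals. They lie at chr11:96318017-96318316, chr11:96281655-96281954, chr2:74721728-74722027 and chr2:74667975-74668274, all on the plus strand.
Hoxb4: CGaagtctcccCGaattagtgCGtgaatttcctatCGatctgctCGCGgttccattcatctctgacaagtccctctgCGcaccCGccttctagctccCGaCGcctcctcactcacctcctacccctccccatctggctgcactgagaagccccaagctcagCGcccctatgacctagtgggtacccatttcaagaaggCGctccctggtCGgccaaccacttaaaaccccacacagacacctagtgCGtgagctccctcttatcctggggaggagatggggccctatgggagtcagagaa
Hoxb8: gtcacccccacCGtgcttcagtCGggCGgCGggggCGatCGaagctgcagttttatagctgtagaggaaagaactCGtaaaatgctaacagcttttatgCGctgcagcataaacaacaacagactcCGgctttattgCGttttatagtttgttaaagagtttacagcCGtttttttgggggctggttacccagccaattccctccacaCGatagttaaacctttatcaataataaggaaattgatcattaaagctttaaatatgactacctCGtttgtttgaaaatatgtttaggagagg
Hoxd4: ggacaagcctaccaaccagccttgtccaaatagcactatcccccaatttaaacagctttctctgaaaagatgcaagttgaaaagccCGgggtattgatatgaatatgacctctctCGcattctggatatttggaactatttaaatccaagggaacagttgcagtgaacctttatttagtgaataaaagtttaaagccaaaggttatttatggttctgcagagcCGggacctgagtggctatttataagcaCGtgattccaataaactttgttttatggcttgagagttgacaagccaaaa
Hoxd13: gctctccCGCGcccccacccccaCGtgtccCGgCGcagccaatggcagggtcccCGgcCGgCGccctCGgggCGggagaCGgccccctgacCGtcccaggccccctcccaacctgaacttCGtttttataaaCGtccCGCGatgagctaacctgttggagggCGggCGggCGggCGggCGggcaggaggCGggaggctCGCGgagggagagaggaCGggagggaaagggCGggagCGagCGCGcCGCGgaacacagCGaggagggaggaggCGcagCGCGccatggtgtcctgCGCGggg
These held 14 CpG sites in Hoxb4, 13 in Hoxb8, 4 in Hoxd4 and 37 in Hoxd13. The median was 13 over the 9 promoters of expressed Hox genes (4 to 29), 14 over the 10 of silent ones (4 to 45) and 7 over all 32851 promoters (quartiles 3 and 20). Median GC content was 55.7% in expressed, 59.8% in silent and 52.7% in all promoters. CpG and GC content in this window thus overlapped widely between the expressed and silent genes that had a matched promoter.

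Motifs were searched on both strands as letters. The core of the interferon-stimulated response element, GAAA followed after 2 bases by another GAAA, occurred in 3.44% of all promoters and in none of the 24 Hox promoters. The interferon-γ-activated site TTCNNNGAA occurred in 8.30% of all promoters and in 1 Hox promoter, that of Hoxd4, at bases 58 to 66 of the sequence above. The Pbx-Hox site TGATTNAT occurred in 3.22% of all promoters and in those of Hoxa2 and Hoxd11. A match is a run of letters and not a measured binding site.

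Between KO-labelled and WT-labelled cells, Hoxa3 was the Hox gene that passed the test, and it was higher in KO-labelled cells in both treatments. Hoxa3, which patterns the neck and throat region, averaged 509 ± 48.6 normalised reads in untreated KO-labelled cells and 184 ± 13.9 in untreated WT-labelled cells (SD, n = 2 and n = 3). With the replicate number as a block, Hoxb6 and Hoxb8, which lie together in the trunk part of the Hoxb cluster, were also higher in KO-labelled cells in both treatments, and Hoxd8 and Hoxd9 were lower. Most tested Hoxa and Hoxb genes lay above 0 and the 3 tested Hoxd genes lay below 0 in both treatments. Since each culture is a mixture of cells read in bulk, fewer cells using a gene and less RNA per cell cannot be told apart.

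The test was limma on log2 of normalised reads plus 1 over all genes, two-sided, with Benjamini-Hochberg adjustment, and a gene is called at an adjusted p under 0.05. Of the 39 Hox genes, 18 passed the filter on low counts and were tested, 7 Hoxa, 8 Hoxb, no Hoxc and 3 Hoxd genes. In untreated cells 1 was called higher in KO-labelled cells and 0 lower, where 3.00% and 3.23% of all 12313 tested genes were called. There 7 of the 18 had an unadjusted p under 0.05 (2582 of all genes). With the block, 6 were called higher (among them Hoxa3, Hoxa4, Hoxb6, Hoxb8 and Hoxb9) and 2 lower (Hoxd8 and Hoxd9), where 13.5% and 13.1% of all genes were called. With IFN-β, 1 was called higher and 0 lower, where 2.92% and 3.64% of all genes were called, and with the block 7 higher and 2 lower, where 12.7% and 13.3% of all genes were called. The added gene was Hoxa7. Other tools were run on the recovered reads. In untreated cells edgeR called 1 Hox gene higher and 0 lower (of all genes 2.88% and 2.89%), edgeR with the block 6 and 2 (13.6% and 13.5%) and DESeq2 2 and 1 (6.09% and 6.20%). With IFN-β edgeR called 1 and 0 (2.70% and 3.37%), edgeR with the block 4 and 2 (12.7% and 14.0%) and DESeq2 1 and 0 (5.78% and 6.43%). Hoxa3 was among the genes called higher by each tool in both treatments.

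Without a test, 15 of the 18 tested Hox genes lay above 0 in untreated KO-labelled against WT-labelled cells, with a median log2 difference of 0.63, against 0.00 over all tested genes. By cluster the median was 0.82 for Hoxa, 0.58 for Hoxb and −0.61 for Hoxd. With IFN-β 13 lay above 0, with medians of 0.60 over the 18, 0.84 for Hoxa, 0.55 for Hoxb, −0.57 for Hoxd and −0.0001 over all tested genes. In untreated cells 12 Hox genes had every KO-labelled library above every WT-labelled one and 1 had every one below, where 15.7% and 15.9% of all genes did so. With IFN-β the counts were 10 and 2, where 20.0% and 20.4% of all genes did so. The comparisons in untreated and in IFN-β cells use different libraries but the same KO and WT cells.

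**Figure D3:**
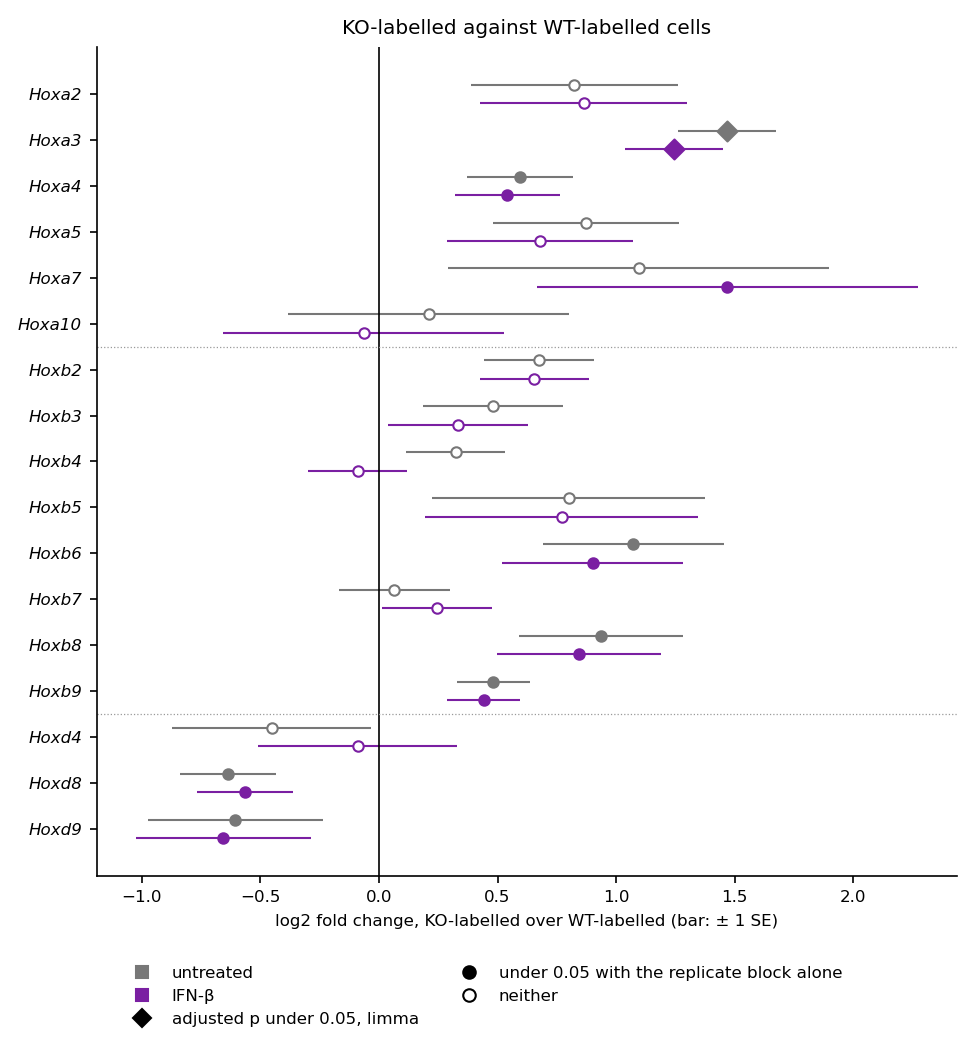
Log2 fold change of KO-labelled over WT-labelled cells (± SE, limma) for tested Hox genes in untreated cells and with IFN-β. Diamonds mark an adjusted p under 0.05, filled circles one reached with the replicate block alone and open circles neither. Hoxa3 lies at 1.47 untreated and 1.24 with IFN-β, and Hoxd8 and Hoxd9 lie below 0 in both.

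Among the Hoxa genes, Hoxa3 had 401 and 469 normalised reads in IFN-β-treated KO-labelled cells, against 220.4, 158 and 175 in IFN-β-treated WT-labelled cells, while untreated KO-labelled cells had 475 and 544, against 195, 187 and 168 in untreated WT-labelled cells. Both KO-labelled groups lay wholly above the WT-labelled ones. The log2 fold change was 1.47 ± 0.21 untreated (adjusted p = 0.0039) and 1.24 ± 0.21 with IFN-β (adjusted p = 0.0085). The untreated call held without any 1 of the 10 libraries (adjusted p up to 0.0421), and the IFN-β call was lost without IFN-β KO-labelled library 2 (adjusted p = 0.0923). Of the exon bases of Hoxa3, 25.4% overlap antisense annotated genes and 8.01% a same-strand predicted gene, and the strand setting of the counting is not given, so reads of the partners could enter its count.

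Hoxa4, a neck and upper trunk gene, had 140.5 and 134 normalised reads in IFN-β-treated KO-labelled cells, against 101, 82.0 and 100.1 in IFN-β-treated WT-labelled cells, while untreated KO-labelled cells had 182 and 178, against 103, 129 and 127 in untreated WT-labelled cells. It did not overlap between genotypes in either treatment (log2 fold change 0.59 ± 0.22, adjusted p = 0.164 untreated and 0.204 with IFN-β; with the block 0.0365 and 0.0497). Its block calls were lost without any 1 library other than untreated WT-labelled library 2 or IFN-β WT-labelled library 1 or 2 (adjusted p up to 0.172) in untreated cells and without any 1 library other than untreated WT-labelled library 2 (adjusted p up to 0.23) with IFN-β.

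Hoxa2, the regulator of the second pharyngeal arch, had 99.3 and 189 normalised reads in IFN-β-treated KO-labelled cells, against 80.3, 63.0 and 82.8 in IFN-β-treated WT-labelled cells, while untreated KO-labelled cells had 108 and 306, against 96.6, 104 and 107 in untreated WT-labelled cells. The library with the highest value in each treatment was KO-labelled library 2, and the difference passed neither test (adjusted p = 0.332 untreated and 0.308 with IFN-β). Hoxa5, which acts in the lung and the neck-to-thorax transition, had 58.1 and 93.9 normalised reads in IFN-β-treated KO-labelled cells, against 60.8, 38.0 and 41.4 in IFN-β-treated WT-labelled cells, while untreated KO-labelled cells had 86.0 and 174, against 56.0, 66.8 and 78.5 in untreated WT-labelled cells. Its KO-labelled values lay above the WT-labelled ones in untreated cells and overlapped with IFN-β (adjusted p = 0.246 and 0.375). Hoxa7, a thoracic gene, had 22.2 and 31.9 normalised reads in IFN-β-treated KO-labelled cells, against 2.06, 20.0 and 14.4 in IFN-β-treated WT-labelled cells, while untreated KO-labelled cells had 25.2 and 64.1, against 12.1, 23.2 and 21.7 in untreated WT-labelled cells. It was called with the block in IFN-β cells (adjusted p = 0.0413, against 0.35 without it), with 0.0904 in untreated cells, and that call was lost without any 1 library other than untreated WT-labelled library 1 or IFN-β WT-labelled library 2 (adjusted p up to 0.294). Hoxa10, a lumbar gene, had 3.17 and 6.38 normalised reads in IFN-β-treated KO-labelled cells, against 6.18, 6.00 and 2.89 in IFN-β-treated WT-labelled cells, while untreated KO-labelled cells had 6.29 and 11.3, against 12.1, 4.84 and 6.19 in untreated WT-labelled cells, with groups that overlapped in both treatments. Of the exon bases of Hoxa7, Hoxa4 and Hoxa2, 20.4%, 16.0% and 15.0% overlap other annotated genes.

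Among the Hoxb genes, Hoxb6 had 316 and 513 normalised reads in IFN-β-treated KO-labelled cells, against 183, 303 and 179 in IFN-β-treated WT-labelled cells, while untreated KO-labelled cells had 229 and 434, against 119.7, 197 and 141 in untreated WT-labelled cells. Library 2 exceeded library 1 in all 4 groups. The log2 fold change was 1.07 ± 0.38 untreated (adjusted p = 0.147) and 0.90 ± 0.38 with IFN-β (adjusted p = 0.219), and with the block 0.99 ± 0.15 (adjusted p = 0.0023) and 0.82 ± 0.15 (adjusted p = 0.0055). The block call in untreated cells held without any 1 library, and that with IFN-β was lost without IFN-β KO-labelled library 1 (adjusted p = 0.0586). Hoxb8, a thoracic gene also used in blood and neural cells, had 436 and 752 normalised reads in IFN-β-treated KO-labelled cells, against 255, 366 and 346 in IFN-β-treated WT-labelled cells, while untreated KO-labelled cells had 222 and 373, against 112, 189 and 160.0 in untreated WT-labelled cells. Its groups did not overlap within either treatment. The log2 fold change was 0.94 ± 0.35 untreated (adjusted p = 0.159) and 0.84 ± 0.35 with IFN-β (adjusted p = 0.203), and with the block 0.99 ± 0.13 (adjusted p = 0.0015) and 0.90 ± 0.13 (adjusted p = 0.0024). Both block calls held without any 1 library, at adjusted p up to 0.0215 and 0.0397.

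Hoxb9 had 2775 and 2873 normalised reads in IFN-β-treated KO-labelled cells, against 1888, 2251 and 2118 in IFN-β-treated WT-labelled cells, while untreated KO-labelled cells had 2736 and 2460.0, against 1667, 2179.6 and 1765 in untreated WT-labelled cells. Every KO-labelled value was above every WT-labelled one in both treatments (log2 fold change 0.48 ± 0.15, adjusted p = 0.109 untreated and 0.138 with IFN-β; with the block 0.0311 and 0.0438). The block calls of Hoxb9 were lost without untreated KO-labelled library 1, untreated WT-labelled library 1 or 3 or IFN-β WT-labelled library 1 or 3 (adjusted p up to 0.253) in untreated cells and without any 1 library other than either untreated KO-labelled library or untreated WT-labelled library 2 (adjusted p up to 0.236) with IFN-β. Hoxb2, a hindbrain gene, had 486 and 439 normalised reads in IFN-β-treated KO-labelled cells, against 379, 264 and 251 in IFN-β-treated WT-labelled cells, while untreated KO-labelled cells had 326 and 285, against 171, 223 and 182 in untreated WT-labelled cells. It did not overlap between genotypes in either treatment and passed no test (adjusted p = 0.131 untreated and 0.141 with IFN-β). Of its exon bases, 27.3% lie antisense to an annotated transcript, and 52.9% of those of Hoxb3.

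The remaining Hoxb genes did not pass either test between genotypes. Hoxb3, a gene of the hindbrain and neck, had 233 and 357 normalised reads in IFN-β-treated KO-labelled cells, against 262, 248 and 185 in IFN-β-treated WT-labelled cells, while untreated KO-labelled cells had 200.3 and 249, against 191, 120.1 and 178 in untreated WT-labelled cells. Hoxb4, known for its use in blood stem cells, had 247 and 205 normalised reads in IFN-β-treated KO-labelled cells, against 242, 255 and 223 in IFN-β-treated WT-labelled cells, while untreated KO-labelled cells had 205 and 161, against 148, 134 and 155 in untreated WT-labelled cells. Its KO-labelled values were the higher ones in untreated cells and overlapped the WT-labelled ones with IFN-β. Hoxb5 had 64.4 and 164 normalised reads in IFN-β-treated KO-labelled cells, against 49.4, 92.0 and 47.2 in IFN-β-treated WT-labelled cells, while untreated KO-labelled cells had 56.6 and 111, against 26.4, 76.5 and 45.4 in untreated WT-labelled cells. Hoxb7 had 735 and 726 normalised reads in IFN-β-treated KO-labelled cells, against 527, 669 and 665 in IFN-β-treated WT-labelled cells, while untreated KO-labelled cells had 543 and 472, against 360.2, 616 and 512 in untreated WT-labelled cells. For Hoxb5 the spread between libraries 1 and 2 of a KO-labelled group was larger than the difference between the group means, and for Hoxb7 the untreated groups overlapped (adjusted p = 0.92).

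Among the Hoxd genes, Hoxd8, which acts in the trunk, had 158 and 197 normalised reads in IFN-β-treated KO-labelled cells, against 264, 271 and 251 in IFN-β-treated WT-labelled cells, while untreated KO-labelled cells had 149.9 and 202, against 278, 267 and 268 in untreated WT-labelled cells. Every KO-labelled library lay below every WT-labelled one (log2 fold change −0.64 ± 0.20, adjusted p = 0.107 untreated and 0.148 with IFN-β; with the block 0.0192 and 0.0299). The block calls were lost without untreated KO-labelled library 1, untreated WT-labelled library 1 or 3 or IFN-β WT-labelled library 3 (adjusted p up to 0.151) in untreated cells and without untreated WT-labelled library 3, either IFN-β KO-labelled library or any 1 IFN-β WT-labelled library (adjusted p up to 0.204) with IFN-β. Hoxd9, a gene of the lower trunk and limb, had 128 and 189 normalised reads in IFN-β-treated KO-labelled cells, against 209, 291 and 243 in IFN-β-treated WT-labelled cells, while untreated KO-labelled cells had 152 and 243, against 188, 420.2 and 319 in untreated WT-labelled cells. The untreated groups overlapped and those with IFN-β did not (adjusted p = 0.407 and 0.362; with the block 0.0497 and 0.0379). Its block calls were lost without any 1 library other than untreated WT-labelled library 1 (adjusted p up to 0.226) in untreated cells and without any 1 library other than untreated WT-labelled library 1 or 2 (adjusted p up to 0.242) with IFN-β. Hoxd4, a hindbrain and neck gene, had 49.6 and 70.2 normalised reads in IFN-β-treated KO-labelled cells, against 69.0, 89.0 and 40.4 in IFN-β-treated WT-labelled cells, while untreated KO-labelled cells had 16.8 and 31.1, against 29.6, 35.8 and 29.9 in untreated WT-labelled cells, with no call between genotypes (adjusted p = 0.616 untreated and 0.937 with IFN-β).

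**Figure D4:**
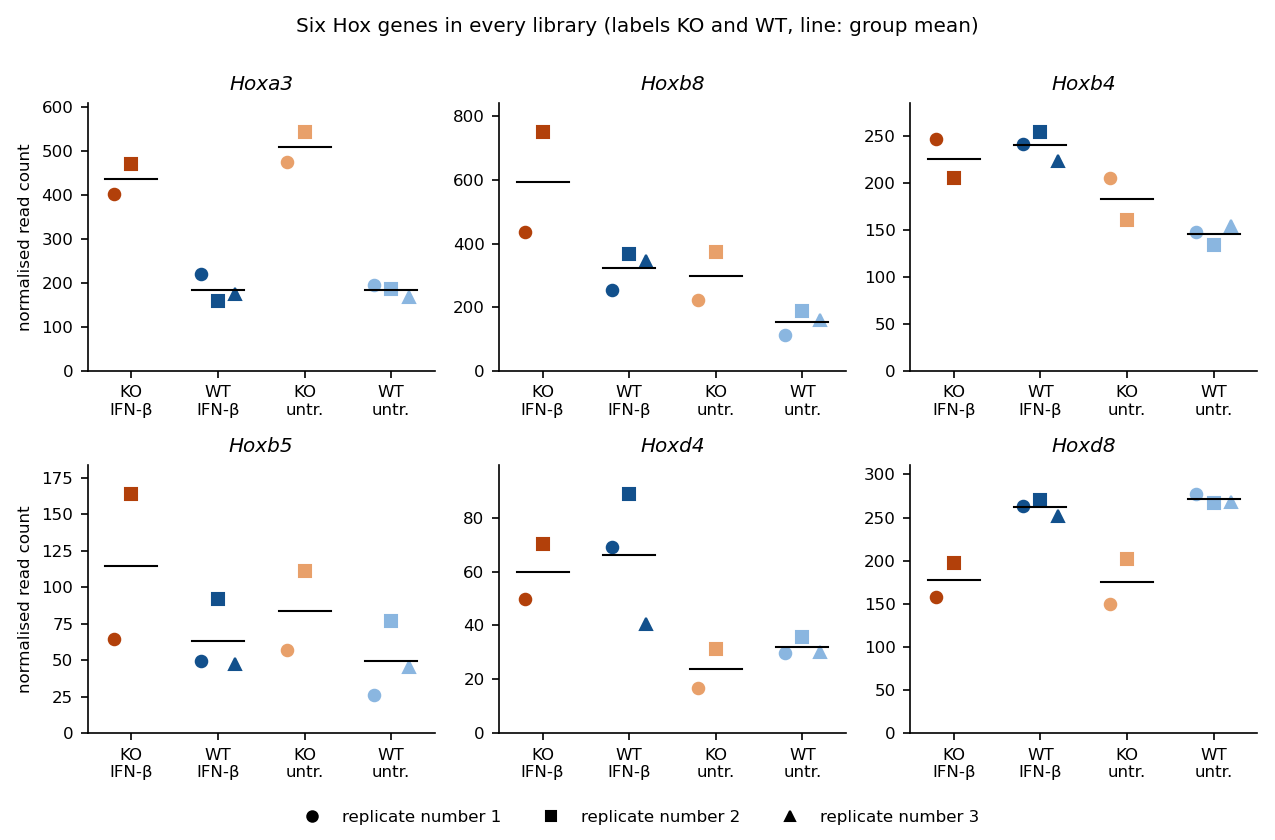
Normalised reads of 6 Hox genes in every library, with the marker shape giving the replicate number and a line at each group mean, KO-labelled groups left of WT-labelled ones. Hoxa3 and Hoxd8 separate the labelled genotypes without overlap, and libraries numbered 2 lie above those numbered 1 in Hoxb5 and Hoxb8 in every group.

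Several Hox genes differed between libraries of different replicate number. In the fit with the block, libraries numbered 2 were higher than those numbered 1 by 0.76 on the log2 scale for Hoxb6 (adjusted p = 0.00095), by 0.70 for Hoxb8 (0.00093), by 1.17 for Hoxb5 (0.0014), by 1.37 for Hoxa7 (0.0166) and by 0.72 for Hoxd9 (0.0034). Of all tested genes 25.3% were higher and 23.3% lower in libraries numbered 2, so such differences were not particular to the Hox genes. What a number marks is not stated in the labels.

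Marker lists were read beside these values. Of the 13 fibroblast markers, 8 had a higher and 5 a lower mean in untreated KO-labelled than in untreated WT-labelled cells. The collagen gene Col1a2 averaged 105220 normalised reads in untreated KO-labelled cells, against 53174 in untreated WT-labelled cells. The proteoglycan genes Dcn and Lum averaged 79.5 and 0.995 in untreated KO-labelled cells, against 1758 and 36.0 in untreated WT-labelled cells. The neural list (5 genes, with Sox10 and Elavl3 at 0 in all libraries) summed to 1192 to 1313 normalised reads in KO-labelled cells with IFN-β, against 679 to 1013 in WT-labelled cells with IFN-β, and to 829 to 1287 in untreated KO-labelled cells, against 687 to 1312 in untreated WT-labelled cells. Within it Tubb3 averaged 509 in untreated KO-labelled cells, against 967 in untreated WT-labelled cells, and Mtap2 370.0 in untreated KO-labelled cells, against 51.6 in untreated WT-labelled cells. Sox2 averaged 179 in untreated KO-labelled cells and was at 0 in untreated WT-labelled cells. The muscle and cartilage list (7 genes, with Myod1 and Myog at 0) summed to 1368 to 3340.4 in KO-labelled cells with IFN-β, against 329.9 to 2096 in WT-labelled cells with IFN-β, and to 1560.3 to 3083 in untreated KO-labelled cells, against 506 to 2081 in untreated WT-labelled cells. Within it the cartilage genes Col2a1 and Sox9 averaged 1631 and 674 in untreated KO-labelled cells, against 642 and 446 in untreated WT-labelled cells. The muscle genes Acta1 and Ckm had at most 12 and 1 reads in a library. Macrophage (6 genes, 52.96 to 95.2 summed, with Emr1 at 0), endothelial (5 genes, 2.90 to 20.2) and epithelial genes (6 genes, 1.00 to 5.24, with Krt5 at 0) were at low levels in every group. The part of the marker levels in the Hox values was not tested.

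With IFN-β, no Hox gene passed the test in either labelled genotype. With the replicate block, Hoxb8 rose in both, to a mean of 594 ± 223 normalised reads in KO-labelled cells with IFN-β, against 298 ± 107 untreated (SD, n = 2 each), and to 322 ± 58.8 in WT-labelled cells with IFN-β, against 154 ± 38.8 untreated (SD, n = 3 each). Hoxb4 rose with the block in WT-labelled cells. All 8 tested Hoxb genes lay above 0 in both labelled genotypes under every scaling. Hoxa2, Hoxa3, Hoxa4, Hoxa5, Hoxa7 and Hoxa10 lay below 0 in KO-labelled cells under every scaling. In WT-labelled cells these genes other than Hoxa3 did so too, while Hoxa3 lay at −0.00 and on either side of 0 depending on the scaling.

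In KO-labelled cells 0 of the 18 tested Hox genes were called by limma, edgeR or DESeq2, where 1.83% of all genes were called higher and 0.0162% lower by limma, and 3 had an unadjusted p under 0.05 (599 of all genes). With the block 1 was called higher and 0 lower, where 3.37% and 0.114% of all genes were called. In WT-labelled cells 0 were called by limma or edgeR, where 2.21% of all genes were called higher and 0.00% lower by limma. There 4 had an unadjusted p under 0.05 (748 of all genes), and DESeq2 called Hoxb4 (adjusted p = 0.0076) and Hoxb8 (0.043). With the block 2 were called higher and 0 lower, where 4.68% and 0.268% of all genes were called. The shares of all genes called higher and lower in KO-labelled cells were 1.66% and 0.00812% by edgeR and 2.41% and 0.0325% by DESeq2, and in WT-labelled cells 2.10% and 0.00% by edgeR and 3.30% and 0.0325% by DESeq2. edgeR with the block called 1 Hox gene higher in KO-labelled cells (3.32% of all genes higher and 0.130% lower) and 2 in WT-labelled cells (4.71% and 0.317%).

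The Hoxb8 log2 fold change was 0.99 ± 0.38 in KO-labelled cells (adjusted p = 0.715; with the block 0.99 ± 0.14, adjusted p = 0.0042). The corresponding value in WT-labelled cells was 1.08 ± 0.31 (adjusted p = 0.201; with the block 1.08 ± 0.11, adjusted p = 0.000585). Within each replicate number of each labelled genotype the IFN-β library lay above the untreated one, in 5 of 5 pairs. The block call in WT-labelled cells held without any 1 library (adjusted p up to 0.0112), and that in KO-labelled cells was lost without untreated KO-labelled library 1 or IFN-β KO-labelled library 2 (adjusted p up to 0.0884). Hoxb4 had 247 and 205 in KO-labelled cells with IFN-β, against 205 and 161 untreated, and 242, 255 and 223 in WT-labelled cells with IFN-β, against 148, 134 and 155 untreated. In WT-labelled cells the 3 IFN-β values lay above the 3 untreated ones (log2 fold change 0.72 ± 0.19, adjusted p = 0.126; with the block 0.0224), and the block call was lost without any 1 untreated WT-labelled library or any 1 IFN-β WT-labelled library (adjusted p up to 0.0963).

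Hoxd4, at the low end of the expressed genes, had 49.6 and 70.2 in KO-labelled cells with IFN-β, against 16.8 and 31.1 untreated, and 69.0, 89.0 and 40.4 in WT-labelled cells with IFN-β, against 29.6, 35.8 and 29.9 untreated. The groups did not overlap in either labelled genotype, with log2 fold changes of 1.33 ± 0.46 in KO-labelled cells and 0.97 ± 0.38 in WT-labelled cells, and neither passed (adjusted p = 0.526 and 0.592; with the block 0.0568 and 0.0708). Hoxb2 had log2 fold changes of 0.60 ± 0.25 in KO-labelled cells and 0.62 ± 0.21 in WT-labelled cells (adjusted p = 0.92 and 0.374). Hoxa3, the gene that separated the genotypes, had −0.23 ± 0.23 in KO-labelled cells and −0.00 ± 0.18 in WT-labelled cells.

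The Hoxa log2 values ran from −0.77 to −0.23 in KO-labelled cells and from −0.95 to −0.00 in WT-labelled cells. The Hoxb values ran from 0.12 to 0.99 in KO-labelled cells (median 0.37) and from 0.16 to 1.08 in WT-labelled cells (median 0.52). Over all tested genes the median was −0.03 in each. In KO-labelled cells 5 Hox genes had every IFN-β library above every untreated one and 2 below, where 10.7% and 9.67% of all genes did so. In WT-labelled cells the counts were 4 and 3, where 7.48% and 4.11% did so. No difference between genotypes in the response of a Hox gene passed the test: the interaction ran from −0.41 to 0.37 on the log2 scale over the 18, with 0 called and 0 at an unadjusted p under 0.05. Of all 12313 genes 0.00% were called and 36 had an unadjusted p under 0.05. Slfn2 itself, with an interaction of −3.35, was not called either. The absence of a call therefore does not show that the responses of Hox genes were alike. By edgeR and DESeq2 0 Hox genes were called in the interaction.

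**Figure D5:**
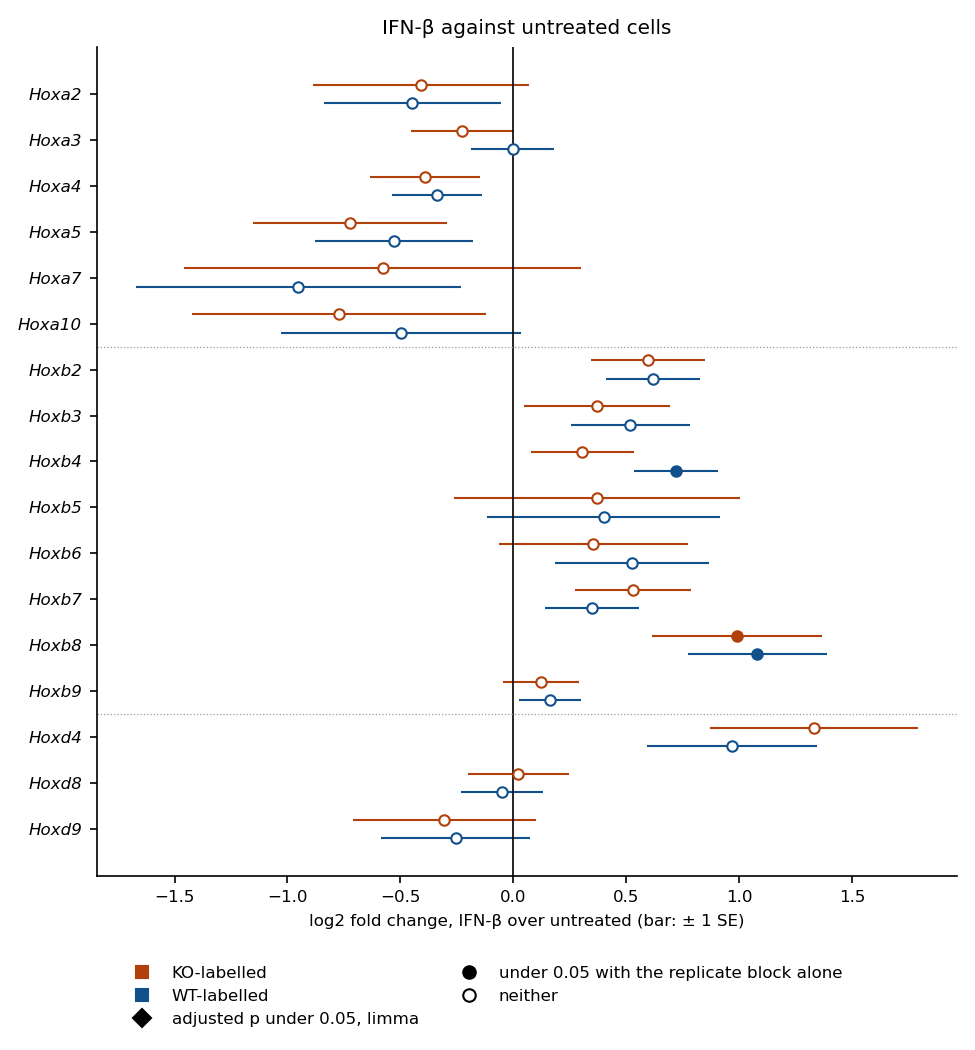
Log2 fold change of IFN-β over untreated cells (± SE, limma) for tested Hox genes in KO-labelled and in WT-labelled cells. Hoxb genes lie above 0 in both and Hoxa genes below 0, except that Hoxa3 in WT-labelled cells lies at −0.00 and changes side with the scaling, with Hoxb8 at 0.99 in KO-labelled cells and 1.08 in WT-labelled cells, and none passed the test.

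The clusters also carry microRNA genes, whose mature sequences (RefSeq, GRCm38.p6) are shown because miR-196 is known to cut the Hoxb8 transcript in mouse embryos. Bases 2 to 8, the seed, are in capitals.
mmu-miR-196a-5p: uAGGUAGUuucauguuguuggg
mmu-miR-196b-5p: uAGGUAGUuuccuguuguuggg
mmu-miR-10a-5p: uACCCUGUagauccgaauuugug
mmu-miR-10b-5p: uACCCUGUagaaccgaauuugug
The members of each pair share a seed. The Mir196a-1 row, in the Hoxb cluster beside Hoxb9, had 30.8 to 58.0 normalised reads and no call in any comparison, while Mir196a-2, Mir196b, Mir10a and Mir10b were at 0 in all libraries. Total RNA libraries of this kind do not select mature microRNAs, so these rows stand for longer transcripts over those genes and not for the mature forms. The Hoxb8 3′ UTR holds, at bases 421 to 442, a run of 22 bases that pairs with miR-196a at 21 positions, and the remaining position, in lower case, forms a G:U pair.
Hoxb8 site: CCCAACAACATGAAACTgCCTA
The perfect seed match ACTACCT occurs in the annotated 3′ UTR of 1282 of 21669 genes (5.92%) and of 9 of the 39 Hox genes (among them Hoxa4, Hoxa5, Hoxa7, Hoxa9, Hoxb1, Hoxb6, Hoxb7 and Hoxc8). Hoxa7 holds 4 matches and Hoxc8 holds 2. Median 3′ UTR length was 969 bases in Hox genes and 911 in all genes.

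Of the other annotated rows inside the clusters, Gm53 in the Hoxb cluster had 150.2 to 243 normalised reads. Hotair, the long RNA of the Hoxc cluster, Mir615 in the same cluster and the antisense RNA of Hoxa11 were at 0 in all libraries, and the Hoxa antisense RNA Hoxaas3 had 0 to 2.06. The Hoxc cluster thus had no read in Hotair or Mir615.

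Genes that act with or on Hox genes were described from lists. Of all genes, 3.00% were called higher and 3.23% lower in untreated KO-labelled cells (with the block 13.5% and 13.1%). With IFN-β these shares were 2.92% and 3.64% (with the block 12.7% and 13.3%). Whether a list differs from these shares was not tested. Of 9 tested TALE cofactors (Pbx, Meis and Pknox genes), 1 was lower in KO-labelled cells in each treatment and none higher, with median log2 differences of −0.09 untreated and −0.05 with IFN-β. It was Pknox2, a partner of PBX proteins, with 32.7 and 22.8 normalised reads in IFN-β-treated KO-labelled cells, against 242, 631 and 547 in IFN-β-treated WT-labelled cells, while untreated KO-labelled cells had 21.0 and 11.3, against 156, 577 and 437 in untreated WT-labelled cells (log2 fold change −4.37 ± 0.60, adjusted p = 0.0035 untreated, and −3.95 ± 0.60, adjusted p = 0.0054 with IFN-β). The call with IFN-β was lost without IFN-β KO-labelled library 2 (adjusted p = 0.0527). With the block 3 were lower, adding Meis2 (adjusted p = 0.0165 untreated and 0.0045 with IFN-β) and Meis3 (0.0059 and 0.0113). The Meis2 call was lost without either untreated KO-labelled library, untreated WT-labelled library 3 or IFN-β WT-labelled library 3 (adjusted p up to 0.151) in untreated cells and without IFN-β KO-labelled library 1 (adjusted p up to 0.0505) with IFN-β, and that of Meis3 without untreated KO-labelled library 1 (adjusted p up to 0.0525) and without IFN-β KO-labelled library 2 (adjusted p up to 0.134). With IFN-β no TALE gene was called in either labelled genotype, and with the block Meis2 was higher in WT-labelled cells (adjusted p = 0.028, lost without any 1 library other than untreated KO-labelled library 1 or untreated WT-labelled library 2 (adjusted p up to 0.151)).

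None of 13 tested genes of Polycomb repressive complex 2, which writes the silencing mark H3K27me3, was called in any comparison without the block. With it 3 were higher and 1 lower in untreated KO-labelled cells, and 1 and 1 with IFN-β, to be read beside the shares of all genes given above. Of 20 genes of Polycomb repressive complex 1, 1 was higher in KO-labelled cells in each treatment and none lower (with the block 4 and 2 untreated, 1 and 2 with IFN-β). It was Cbx7, which reads H3K27me3, with 87.7 and 139 normalised reads in IFN-β-treated KO-labelled cells, against 16.5, 32.0 and 26.0 in IFN-β-treated WT-labelled cells, while untreated KO-labelled cells had 109 and 168, against 23.1, 42.6 and 21.7 in untreated WT-labelled cells. Its log2 fold change was 2.24 ± 0.44 untreated (adjusted p = 0.0177) and 2.16 ± 0.44 with IFN-β (adjusted p = 0.0208). These calls were lost without untreated KO-labelled library 2 or untreated WT-labelled library 3 (adjusted p up to 0.136) and without either IFN-β KO-labelled library or IFN-β WT-labelled library 1 or 3 (adjusted p up to 0.169).

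Of the 20 PRC1 genes, 1 was lower with the block in KO-labelled cells with IFN-β against untreated ones, and 2 in WT-labelled cells, where none was without it. In response to IFN-β, Pcgf5, a subunit of a variant PRC1, rose by a log2 fold change of 1.08 ± 0.20 in KO-labelled cells (adjusted p = 0.0229, lost without either untreated KO-labelled library, either IFN-β KO-labelled library or IFN-β WT-labelled library 1 or 2 (adjusted p up to 0.181)) and 1.46 ± 0.16 in WT-labelled cells (adjusted p = 0.000764, held without any 1 library). PRC1 and PRC2 medians lay between −0.11 and 0.12 in every comparison. Of 15 tested Trithorax-type genes and H3K27 demethylases, 0 were called in any comparison without the block, and with it 1 was higher and 2 lower in KO-labelled cells in each treatment.

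Of 19 genes of retinoic acid handling and Cdx factors, 11 were tested, and the Cdx genes were not among them, Cdx2 and Cdx4 being at 0 in all libraries. In untreated KO-labelled cells 2 were lower and none higher (with the block 3 and 1), and with IFN-β 1 was lower (with the block 3, with 1 higher). Rdh10, which makes the retinoic acid precursor, had 194 and 148 normalised reads in IFN-β-treated KO-labelled cells, against 389, 444 and 343 in IFN-β-treated WT-labelled cells, while untreated KO-labelled cells had 192 and 155, against 336, 365 and 346 in untreated WT-labelled cells (log2 fold change −1.01 ± 0.21, adjusted p = 0.0227 untreated, and −1.20 ± 0.21, adjusted p = 0.0106 with IFN-β). The untreated call was lost without either untreated KO-labelled library or untreated WT-labelled library 2 or 3 (adjusted p up to 0.162) and that with IFN-β without IFN-β KO-labelled library 2 (adjusted p = 0.108). Stra6, the receptor that takes up retinol, was at 0 and 0 in untreated KO-labelled cells, against 5.49, 45.5 and 38.2 in untreated WT-labelled cells (adjusted p = 0.0372, lost without either untreated KO-labelled library, untreated WT-labelled library 2 or 3 or IFN-β WT-labelled library 2 or 3 (adjusted p up to 0.15)). Cyp26c1, which breaks retinoic acid down, was the listed gene that rose with IFN-β, to 9.50 and 13.7 in KO-labelled cells, against 0 and 0.942 untreated (adjusted p = 0.0374, lost without any 1 of the 10 libraries (adjusted p up to 0.338)). In WT-labelled cells it was at 9.27, 14.0 and 10.6 with IFN-β, against 0, 0 and 0 untreated (adjusted p = 0.0041, held without any 1 library).

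The 3 nearest tested genes on each side of a cluster were read next to the Hox genes. Beside Hoxa, Hibadh, a valine-degrading enzyme, was higher in KO-labelled cells (log2 fold change 0.59 ± 0.14, adjusted p = 0.0405 untreated, and 0.0401 with IFN-β). Tax1bp1, an autophagy receptor, was higher untreated (0.61 ± 0.15, adjusted p = 0.0455, and 0.0735 with IFN-β), and Snx10, a sorting nexin, with IFN-β (1.00 ± 0.25, adjusted p = 0.0498, and 0.0509 untreated). The calls of Hibadh were lost without any 1 library other than untreated WT-labelled library 2 (adjusted p up to 0.206) and without any 1 library other than untreated WT-labelled library 2 or 3 (adjusted p up to 0.248), that of Tax1bp1 without any 1 library other than either IFN-β KO-labelled library (adjusted p up to 0.255) and that of Snx10 without any 1 library other than either untreated KO-labelled library (adjusted p up to 0.305). With the block, 5 of the 6 Hoxa neighbours were higher in KO-labelled cells in each treatment, namely these 3, Skap2 and Cbx3. The block calls of Snx10 held without any 1 library in both treatments. Those of Skap2 were lost without any 1 of 8 libraries untreated and any 1 of 5 with IFN-β (adjusted p up to 0.22). For Cbx3 the numbers were 3 and 5, for Hibadh 2 and 1, and for Tax1bp1 1 and 3. Beside Hoxd, Mtx2 (−0.48 ± 0.12) and Atp5g3 (−0.60 ± 0.16) lay below 0 in untreated cells with adjusted p = 0.0551 and 0.0566, and both were lower with the block (adjusted p = 0.008 and 0.0146; with IFN-β 0.0099 and 0.0304). The block calls of Mtx2 were lost without any 1 of 1 library untreated and of 3 with IFN-β, and those of Atp5g3 of 1 and 6 (adjusted p up to 0.232). The other 4 Hoxd neighbours were not called between genotypes in either fit. Shares of all genes called with the block were 13.5% higher and 13.1% lower in untreated cells, and 12.7% and 13.3% with IFN-β. No neighbour of Hoxb or Hoxc was called without the block, and with it 1 and 2 were higher in untreated KO-labelled cells. Each of these block calls was lost without 1 or more libraries. In response to IFN-β no neighbour was called without the block. With it Snx10 was higher in KO-labelled (adjusted p = 0.0041, lost without untreated KO-labelled library 1 or IFN-β KO-labelled library 2 (adjusted p up to 0.085)) and in WT-labelled cells (adjusted p = 0.000952, held without any 1 library). Also higher with it in WT-labelled cells were Nfe2l1 beside Hoxb (adjusted p = 0.0499, lost without any 1 of the 10 libraries (adjusted p up to 0.326)) and Lnp beside Hoxd (adjusted p = 0.0064, lost without IFN-β WT-labelled library 1 (adjusted p = 0.0575)).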

How the data were processed

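The deposited values are a signal, namely reads per gene scaled by the authors with a factor for each library (normalised reads), for 23337 gene symbols in each of the 10 libraries. Per the submitters' processing notes, reads were handled with cutadapt 1.13, STAR 2.5.2a, HTSeq and DESeq2 on the mm10 genome, and per the series' design text the libraries were directional. The annotation and the strand setting of the counting are not given in the sources used here. Every value was a whole multiple of 1 read within 0.001 reads (100% of values), so whole reads were recovered. Since these are not raw counts, edgeR and DESeq2 on the recovered reads served as alternatives.

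The test was the trend method of limma (version 3.58.1, run in R 4.3.3), applied to log2 of normalised reads with a pseudocount of 1, which understates changes of low genes, with a mean per group over all 10 libraries. Genes passed filterByExpr of edgeR 4.0.16 (minimum count 10), leaving 12313, and p-values were adjusted over all of them by the Benjamini-Hochberg method. Every adjusted p in the text is from limma unless edgeR or DESeq2 (1.42.0) is named. The 5 comparisons were KO-labelled against WT-labelled cells in each treatment, treated against untreated cells of each labelled genotype, and their interaction. Each group enters more than 1 comparison, so no correlation between comparisons is given. The procedure was tested on simulated counts with the same dispersion for every gene and no replicate effect. That test therefore does not show how either fit performs on these libraries. Errors on log2 values are standard errors. Limits at 0 reads cover counting error only.

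Samples were paired by replicate number, after correlating the deviations of libraries from their group's mean. Over all genes the correlation was 0.48 to 0.87 in the 13 pairs of libraries that share a number, and at most 0.32 otherwise. Over the Hox genes the ranges overlapped, at 0.19 to 0.87 in pairs that share a number and up to 0.31 otherwise. In a group of 2 libraries the deviations mirror each other, so many of these correlations repeat each other with the same or opposite sign and are not independent. The labels do not say what a number marks. Alternatives were the replicate block, edgeR and DESeq2, TMM and library-total scaling, other filters and pseudocounts, fits of the compared groups alone, other thresholds for expressed genes, and leaving out each library. Leaving out a library within the block and a second gene length for levels per kb were added after seeing the data.

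Positions, exon overlaps, transcript lengths and 3′ UTRs were taken from GENCODE M21 (GRCm38), promoters and microRNAs from RefSeq tables (GRCm38.p6). The Hox genes and all gene lists were chosen with earlier results of these data known. Tested Hox genes are given in all libraries, and results of a few genes are not reported here. From the other lists up to 4 called genes per comparison are named, by size of change, and beside each cluster the 3 nearest tested genes on each side.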

Additional observations from a re-analysis of the deposited data

How the results depend on the processing

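Counts of called Hox genes depended on the replicate block and on the tool, and not on scaling, filter or pseudocount. The block gave 6 higher and 2 lower in untreated KO-labelled against WT-labelled cells, 7 and 2 with IFN-β, 1 higher in the KO-labelled and 2 higher in the WT-labelled IFN-β response, against 1 and 0, 1 and 0, 0 and 0 without it, and it changed no other call of a Hox gene. edgeR with the block gave 6 higher and 2 lower untreated, 4 higher and 2 lower with IFN-β, 1 higher in the KO-labelled response and 2 higher in the WT-labelled one. DESeq2 gave 2 higher (Hoxa3 and Hoxb9) and 1 lower (Hoxd8) in untreated cells and 2 higher in the WT-labelled response. The cause of these differences was not tested. Without each library in turn the counts of higher genes were 1 to 2 untreated, 0 to 1 with IFN-β and 0 to 0 in both responses. With the block they were 3 to 8, 2 to 7, 0 to 2 for KO-labelled and 1 to 2 for WT-labelled cells, and lower genes numbered 0 to 2 in each genotype comparison. The count of expressed genes was, without each library, 17 to 18 in KO-labelled cells with IFN-β, against 16 to 17 in WT-labelled cells with IFN-β, and 17 to 20 in untreated KO-labelled cells, against 17 to 17 in untreated WT-labelled cells.

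Of single-gene log2 fold changes, 746 were of the same sign and side of the threshold under the alternatives that keep all libraries, 37 newly passed and 5 changed sign. Hoxa3 in the WT-labelled IFN-β response, at −0.0034, became 0.00093 (TMM), 0.011 (edgeR), 0.010 (DESeq2) and 0.012 (edgeR with the block), and Hoxd8 in the KO-labelled response became −0.039 with library totals. Leaving out 1 library changed the sign of uncalled genes near 0. For KO-labelled against WT-labelled untreated these ranges were −0.17 to 0.59 for Hoxa10 and −0.15 to 0.24 for Hoxb7. For KO-labelled against WT-labelled with IFN-β these ranges were −0.48 to 0.35 for Hoxa10, −0.22 to 0.043 for Hoxb4 and −0.40 to 0.16 for Hoxd4. For the KO-labelled IFN-β response these ranges were −1.16 to 0.34 for Hoxa2, −1.24 to 0.078 for Hoxa7, −0.30 to 1.04 for Hoxb5, −0.11 to 0.81 for Hoxb6, −0.19 to 0.23 for Hoxd8 and −0.64 to 0.030 for Hoxd9. For the WT-labelled IFN-β response these ranges were −0.14 to 0.10 for Hoxa3 and −0.58 to 0.0032 for Hoxd9. The level per kb of Hoxa3 moved with the length used, as given above. Depth limits most the genes with few reads, such as Hoxa7 with 2 reads in 1 library.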

Other observations

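Other transcription factors of limb and body region were read beside the Hox genes. Of 39 listed, 24 were tested, and in untreated cells 4 were higher in KO-labelled cells and 1 lower (with the block 12 and 4), with a median log2 difference of 0.61. With IFN-β 3 were higher and 1 lower (with the block 8 and 6), with a median of 0.41. Of all genes, 3.00% were called higher and 3.23% lower in untreated cells (with the block 13.5% and 13.1%). With IFN-β these shares were 2.92% and 3.64% (with the block 12.7% and 13.3%). The list was chosen with earlier results of these data known, and an excess over these shares was not tested. Dlx5 and Dlx6 are a linked pair of homeobox genes of the jaw, limb and skeleton. With IFN-β, Dlx5 had 4.22 and 23.7 normalised reads in KO-labelled cells and was at 0 in all WT-labelled libraries (adjusted p = 0.0472 by limma). Untreated, it had 7.34 and 39.6 in KO-labelled cells and was at 0 in all WT-labelled libraries (adjusted p = 0.0234). Dlx6 had 19.0 and 50.1 in KO-labelled cells with IFN-β and was at 0 in WT-labelled cells with IFN-β (adjusted p = 0.004). Its untreated values were 24.1 and 88.6 in KO-labelled cells, against 0, 0.968 and 1.03 in WT-labelled cells (adjusted p = 0.0046). The Dlx5 call was lost without untreated KO-labelled library 2 or any 1 untreated WT-labelled library (adjusted p up to 0.174) in untreated cells and without any 1 library other than either untreated KO-labelled library or IFN-β KO-labelled library 1 (adjusted p up to 0.3) with IFN-β, and the Dlx6 call with IFN-β without IFN-β KO-labelled library 2 (adjusted p = 0.0502).

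Tbx15, a limb and skeletal T-box gene, was higher in KO-labelled cells (log2 fold change 0.86 ± 0.16, adjusted p = 0.0149 untreated, and log2 fold change 0.73 ± 0.16, adjusted p = 0.0299 with IFN-β), calls lost without either untreated KO-labelled library or untreated WT-labelled library 3 (adjusted p up to 0.118) and without untreated WT-labelled library 3, either IFN-β KO-labelled library or any 1 IFN-β WT-labelled library (adjusted p up to 0.18). Foxd1 was higher in untreated cells (log2 fold change 0.95 ± 0.23, adjusted p = 0.0453), a call lost without any 1 library other than either IFN-β KO-labelled library (adjusted p up to 0.195). In response to IFN-β the listed gene called without the block was Foxf1, a mesoderm factor listed as Foxf1a, in KO-labelled cells (log2 fold change 1.64 ± 0.33, adjusted p = 0.0404), a call lost without any 1 library other than untreated WT-labelled library 1 or 2 (adjusted p up to 0.236). With the block 3.37% of all genes were called higher in KO-labelled cells and 4.68% in WT-labelled cells. Of the listed genes 4 were higher with it in each labelled genotype and none lower. They were Foxf1a (adjusted p = 0.0017 in KO-labelled and 0.0036 in WT-labelled cells), Twist1 (0.0095 and 0.0071), Lhx2 (0.0405 and 0.0372) and Zic1 (0.0091 and 0.021). The Foxf1a calls with the block held without any 1 library in both, and those of Twist1, Lhx2 and Zic1 were lost without 1 or more libraries.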
